A study of Mus musculus with 35 samples.

Results

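Liver gene expression was compared between old and young male CB6F1 mice 48 h after partial hepatectomy (PH), an operation that takes away 70% of the organ. The comparison rests on 3 arrays labelled old and 3 labelled young at 48 h after PH, out of 35 arrays in 14 groups, and sham livers were not part of it. Every probe set with 1 gene symbol was considered, 34958 of 45101, and 18194 genes were tested, each by its probe set with the highest mean level. Young mice were 5 to 6 months old and came from Jackson Laboratories, and old mice were 25 to 27 months old and came from the National Institute on Aging, so age and supplier cannot be told apart. All operated mice of both ages, sham mice included, received avertin and then isoflurane. The same ages were also studied untreated (0 h, 3 arrays each), 24 h and 38 h after PH (3 arrays each) and 24, 38 and 48 h after sham surgery, in which the liver was handled but not cut (2, 1 and 2 arrays of young mice, 2, 2 and 2 of old mice). Whether replicate arrays come from different mice is not stated, and the p-values below measure only how far these samples vary, which may be technical.

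After loss of liver mass the remaining hepatocytes leave quiescence, copy their DNA and divide, while the liver goes on making plasma proteins, bile acids and glucose. Cyclin D1 and the E2F factors open the way to S phase, the MCM helicase and its partners copy the DNA, and FoxM1 and the B cyclins drive mitosis. In aged rodents this programme is known to start later, and C/EBP factors with their chromatin partners have been studied as brakes in aged liver. Kupffer cells, the resident macrophages, and sinusoidal endothelium supply cytokines and growth factors to the hepatocytes.

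The 6 arrays were alike over all genes. Pearson correlations across genes, which are not independent replicates, were 0.991 to 0.994 within the young group, 0.993 to 0.996 within the old group and 0.988 to 0.994 between the ages. Old livers 24 h and 38 h after PH stood apart within their own groups, with correlations down to 0.955 and 0.945, and these arrays enter the spread used in every test. Of the hepatocyte markers, all 8 measured lay at or above percentile 98.3 of all levels in these arrays. Hnf4a, a master regulator of hepatocytes, differed by -0.05 ± 0.08 between the ages, and Alb, serum albumin, by 0.01 ± 0.05. Levels are log2 signals, and differences are old minus young on the log2 scale ± the standard error of a limma fit over all 35 arrays.

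Of 18194 genes, 15 passed an adjusted p of 0.05 in limma (Benjamini-Hochberg), 10 higher and 5 lower in old liver, which is 0.0824% of those tested. At an unadjusted p under 0.05 there were 1293 (7.11%). The old arrays lay wholly above or below the young arrays for all 15 genes. Over all genes, 1559 (8.57%) had every old array above every young array and 1696 (9.32%) had every old array below. The number of calls fell whichever array was left out, which leaves 2 arrays in its group and by itself widens the standard errors. It was 5 without young array 1, 10 without young array 2 and 3 without young array 3. Without an old array it was 5 (array 1), 0 (array 2, with 923 at an unadjusted p under 0.05) and 3 (array 3). It was 60 without the 2 old groups 24 h and 38 h after PH in the fit and 165 with arrays weighted by their quality. A fit of these 6 arrays alone gave 12 calls, 11 higher and 1 lower, and kept 6 of the 15, without Amn, Arl15, Cdo1, Hook2, Lysmd2, Mrps6, Scarb2, Wdfy1 and Zfp991 (adjusted p up to 0.17).

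**Figure D1:**
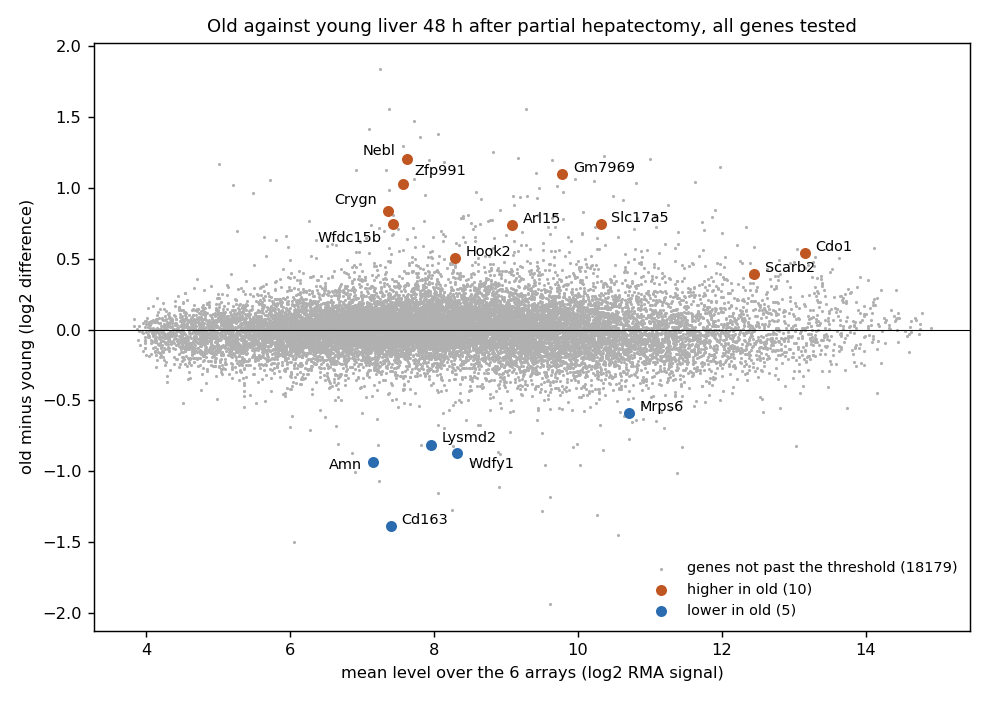
Difference between old and young liver 48 h after PH (vertical axis, log2) against the mean level over the 6 arrays (horizontal axis, log2 RMA signal) for 18194 genes. Grey points did not pass the threshold, and the 15 labelled genes did: 10 higher in old liver (Nebl at 1.21 the largest of them) and 5 lower (Cd163 at -1.38).

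The 15 genes were divided into those that also passed for age in untreated liver and those that did not. At 0 h, 43 genes passed for age (0.236% of genes), and 6 of the 15 were among them, each in the same direction. They are Nebl, Gm7969, Zfp991, Crygn, Wdfy1 and Cd163, or 40% of the 15 and 14% of the 43. The levels of these untreated arrays do not enter the difference at 48 h, but both tests use the same estimate of spread. The other 9 were Wfdc15b, Slc17a5, Arl15, Cdo1, Hook2, Scarb2, Mrps6, Lysmd2 and Amn. Missing the threshold at 0 h does not show that the ages were equal. Of these 9, the 0 h differences furthest from 0 were those of Slc17a5 and Wfdc15b. They were 0.40 ± 0.14 (adjusted p = 0.308 in limma) and 0.33 ± 0.12 (adjusted p = 0.327).

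Nebl encodes nebulette, an actin-binding protein best known from the Z-discs of heart muscle. Its level was 6.95, 7.03 and 7.07 in the young arrays and 8.30, 8.02 and 8.36 in the old arrays. All old arrays were above all young arrays, and the difference of 1.21 ± 0.22 (adjusted p = 0.0263 in limma) was a 2.31-fold higher signal. At 0 h the difference was 1.44 ± 0.22 (adjusted p = 0.0015) and 24 h after PH 1.21 ± 0.22 (adjusted p = 0.0051). The other 2 probe sets of Nebl were dimmer, and their arrays overlapped between the ages (differences of 0.043 and 0.11).

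Gm7969 is a predicted gene that the RefSeq table lists as a long non-coding RNA. It stood at 9.13, 9.24 and 9.34 in young and 10.14, 10.33 and 10.53 in old liver, a difference of 1.10 ± 0.17 (adjusted p = 0.00499). Its other 2 probe sets were also higher in every old array, by 1.08 and 0.47. The age difference was 1.25 ± 0.17 at 0 h, 1.46 ± 0.17 24 h after PH and 0.07 ± 0.17 38 h after PH (adjusted p = 0.854). The suffix of the probe set used marks probes that can cross-hybridise, so a related transcript could add to its signal.

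Zfp991 belongs to the large zinc finger family, whose near-identical copies an array may not separate. Its young arrays were 7.49, 6.88 and 6.80, the first of them above the other two, and its old arrays 8.18, 8.09 and 7.99. The difference of 1.03 ± 0.19 (adjusted p = 0.0263) was close to the 0.92 ± 0.19 of untreated liver (adjusted p = 0.0264). Of its other 2 probe sets, 1 was higher by 0.69 and 1 differed by 0.069, both without overlap of the arrays. Crygn encodes a member of the crystallin family of lens proteins. It read 7.03, 6.92 and 6.89 in young and 7.71, 7.71 and 7.93 in old liver and was higher by 0.83 ± 0.16 (adjusted p = 0.0373), against 0.87 ± 0.16 at 0 h (adjusted p = 0.0133).

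Among the 5 genes lower in old liver, Cd163 and Wdfy1 were also lower in untreated old liver. Cd163 encodes the macrophage scavenger receptor for haemoglobin bound to haptoglobin, and in liver it marks Kupffer cells. Its level was 8.0, 8.06 and 8.21 in young and 6.93, 6.88 and 6.31 in old arrays, with old array 3 the lowest. The signal was 2.61-fold lower in old liver (-1.38 ± 0.24, adjusted p = 0.0196), and the difference was -1.62 ± 0.24 at 0 h (adjusted p = 0.00105) and -1.03 ± 0.24 24 h after PH (adjusted p = 0.016). It was -0.71 ± 0.24 38 h after PH (adjusted p = 0.127 in limma). Over the 3 times after sham surgery it was -0.83 ± 0.18 (adjusted p = 0.0982 in limma). Mean levels were 7.97 in young and 6.83 in old liver 24 h after sham surgery, and 7.82 (1 array) and 6.57 at 38 h. Sham livers at 48 h, 2 arrays of each age, did not show the difference. Their mean level was 7.53 in young (7.47 to 7.59) and 7.44 in old liver (6.95 to 7.93). In whole liver, fewer cells of a type and less RNA per cell cannot be told apart.

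Wdfy1 encodes a WD-repeat protein that binds phosphoinositides on early endosomes. Its young arrays were 8.99, 8.82 and 8.47 and its old arrays 8.06, 7.70 and 7.91. The difference was -0.87 ± 0.13 (adjusted p = 0.00499), beside -0.89 ± 0.13 at 0 h (adjusted p = 0.00105). Of its other 4 probe sets, 3 were lower in old liver and 1 was higher by 0.45, without overlap of the arrays, so its probe sets disagree in direction.

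The remaining 9 genes did not pass for age at 0 h. Amn encodes amnionless, the membrane partner of cubilin in the uptake of cobalamin bound to intrinsic factor. It stood at 7.79, 7.53 and 7.54 in young and 6.90, 6.62 and 6.54 in old liver, a difference of -0.93 ± 0.13 (adjusted p = 0.00499), and the age difference at 0 h was -0.03 ± 0.13 (adjusted p = 0.984). Within each age Amn rose 48 h after PH against 0 h, by 1.31 ± 0.13 in young liver (adjusted p = 1.47e-07) and by 0.41 ± 0.13 in old liver (adjusted p = 0.0386). These contrasts share the 48 h arrays with the age comparison. The age difference at 48 h minus that at 0 h was -0.91 ± 0.19 for Amn (adjusted p = 0.226), the lowest adjusted p of the 15 genes in that test.

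Mrps6, a protein of the small subunit of the mitochondrial ribosome, read 11.11, 10.91 and 11 in young and 10.51, 10.29 and 10.45 in old arrays. The difference was -0.59 ± 0.11 (adjusted p = 0.0373), and -0.63 for its other probe set. The age difference was -0.01 ± 0.11 at 0 h, -0.05 ± 0.11 24 h after PH and -0.64 ± 0.11 38 h after PH, where it passed (adjusted p = 0.00519). Over the 3 times after sham surgery it was -0.14 ± 0.09 (adjusted p = 0.69 in limma). Sham livers at 48 h, 2 arrays of each age, had mean levels of 9.28 in young (9.27 to 9.30) and 8.94 in old liver (8.89 to 8.98). The 48 h difference after PH minus that after sham surgery was -0.24 ± 0.18, which did not pass. Mrps6 rose after PH in both ages, by 1.40 ± 0.11 against 0 h in young (adjusted p = 9.18e-09) and by 0.82 ± 0.11 in old liver (adjusted p = 2.05e-05).

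Lysmd2, a protein with a LysM domain, was 8.79, 8.06 and 8.25 in young and 7.58, 7.66 and 7.42 in old liver, a difference of -0.81 ± 0.16 (adjusted p = 0.0387). The spread was wider in young liver, where array 1 was the highest. Its other probe set, which was dim, differed by -0.050 with overlap.

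Slc17a5 and Scarb2 both encode proteins of the lysosomal membrane. Slc17a5 is sialin, which exports sialic acid from the lysosome, and its level was 10.03, 9.89 and 9.92 in young and 10.72, 10.76 and 10.59 in old arrays, a difference of 0.74 ± 0.14 (adjusted p = 0.0275). It also passed 24 h after PH (0.84 ± 0.14, adjusted p = 0.00316). Scarb2 carries glucocerebrosidase to the lysosome. Its old arrays, 12.65, 12.63 and 12.65, lay within a narrow range above the young arrays of 12.19, 12.34 and 12.23, by 0.39 ± 0.08 (adjusted p = 0.0373), and it passed 38 h after PH as well (0.33 ± 0.08, adjusted p = 0.0223). Its second probe set differed by 0.17 with overlap of the arrays. Both genes were also higher in old liver 48 h after sham surgery, in 2 arrays of each age. Mean levels there were 9.97 (young) and 10.36 (old) for Slc17a5, and 12.61 (young) and 12.88 (old) for Scarb2.

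Cdo1 encodes cysteine dioxygenase, which commits cysteine to taurine and sulfate. It stood at 12.89, 13.07 and 12.70 in young and 13.46, 13.31 and 13.51 in old liver and was higher in old by 0.54 ± 0.10 (adjusted p = 0.0263). Cdo1 fell after PH in both ages, by 1.02 ± 0.10 against 0 h in young (adjusted p = 9.12e-08) and by 0.52 ± 0.10 in old liver (adjusted p = 0.000594). Hook2, a linker of cargo to microtubules, read 8.0, 8.11 and 7.99 in young and 8.52, 8.54 and 8.57 in old arrays, a difference of 0.51 ± 0.09 (adjusted p = 0.0196). Hook2 fell after PH as well, by 0.94 ± 0.09 in young (adjusted p = 6.34e-08) and by 0.53 ± 0.09 in old liver (adjusted p = 0.000154).

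Arl15, a small GTPase of the Arf-like family, was 8.77, 8.62 and 8.76 in young and 9.39, 9.23 and 9.75 in old liver, a difference of 0.74 ± 0.14 (adjusted p = 0.0337), and its other probe set was higher by 0.59. At 24 h after PH the difference was -0.32 ± 0.14 (adjusted p = 0.142), and the 48 h difference minus that at 24 h was 1.06 ± 0.20 (adjusted p = 0.0758), which did not pass. Wfdc15b, of the family of small secreted proteins with a whey acidic protein fold, was 7.15, 7.08 and 6.94 in young and 7.80, 7.86 and 7.74 in old liver and higher by 0.74 ± 0.12 (adjusted p = 0.00649). Both Arl15 (0.51 ± 0.14, adjusted p = 0.0135) and Wfdc15b (0.46 ± 0.12, adjusted p = 0.00826) rose against 0 h in old liver, while the values in young liver were -0.30 ± 0.14 (adjusted p = 0.121) and 0.04 ± 0.12 (adjusted p = 0.845).

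**Figure D2:**
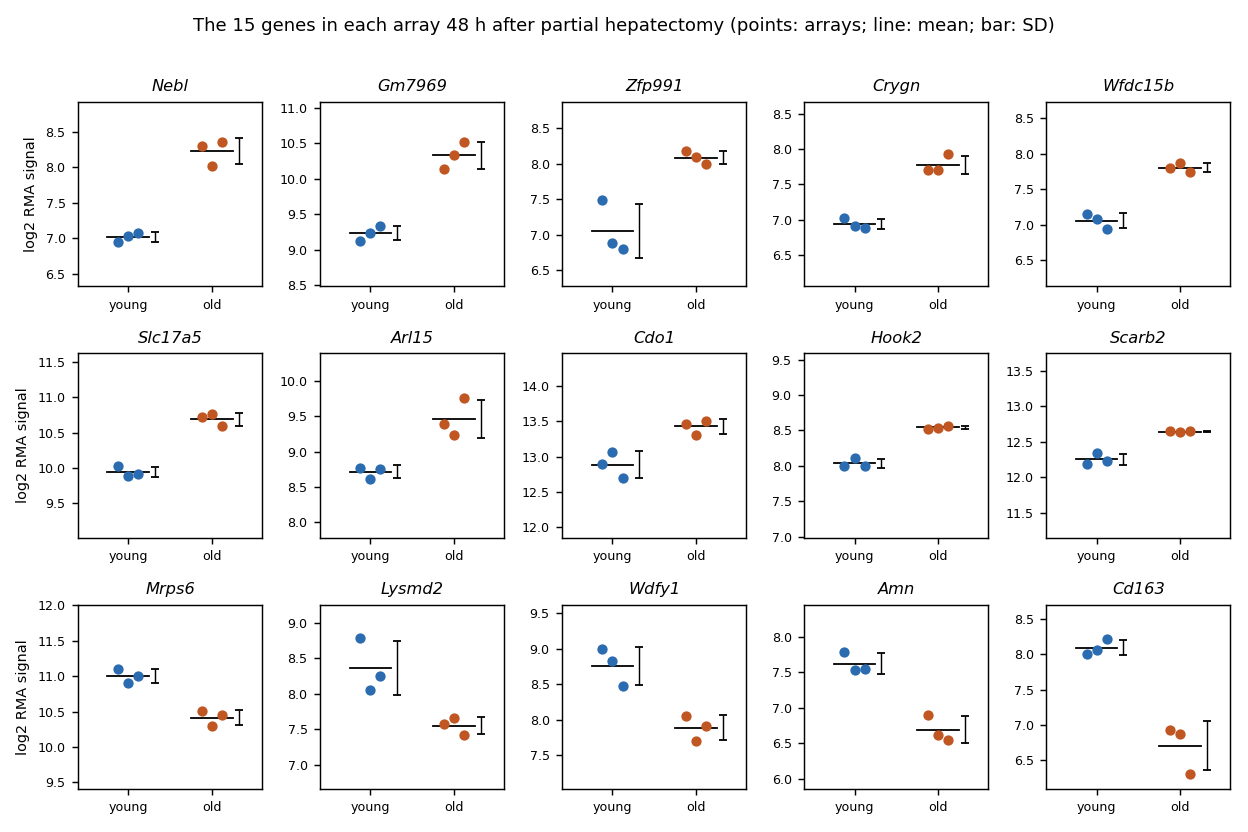
Level of the 15 genes (vertical axes, log2 RMA signal) in the 3 young and 3 old arrays 48 h after PH. Points are arrays, lines are group means and bars are SDs. In each panel the old arrays lie wholly to one side of the young arrays, and the widest young spreads are those of Zfp991 and Lysmd2.

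The age differences of the 15 genes were then read in arrays whose levels do not enter the 48 h difference. These arrays do enter the spread behind its p-values, so calls in them are not independent of the 48 h calls. After sham surgery, taken as the mean of the 3 times, 14 of the 15 had the same direction and 0 passed, with 9 of all genes (0.0495%) passing. The smallest adjusted p there was 0.051, for Zfp991 (0.71 ± 0.14). At 24 h after PH, 14 had the same direction and 7 passed, where 1345 genes (7.39%) passed in all. At 38 h, 12 had the same direction and 2 passed, where 366 genes (2.01%) passed. In all 4 of these comparisons 11 of the 15 kept their direction, and Amn, Arl15, Wdfy1 and Zfp991 did not.

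The reverse reading was made as well. Of the 43 genes that passed for age at 0 h, 35 had the same direction at 48 h after PH, as did 881 of the 1345 that passed 24 h after PH and 285 of the 366 that passed 38 h after PH. The share of all genes with the same direction was not computed for any of these comparisons, here or in the paragraph above. The counts of direction therefore do not show more shared direction than all genes have. The 7 genes called at both 24 h and 48 h are 0.52% of those called at 24 h, and the 2 called at both 38 h and 48 h are 0.546% of those called at 38 h. The larger counts at 24 h and 38 h come from the times at which old arrays stood apart from each other, and the part of that spread in these counts was not tested.

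**Figure D3:**
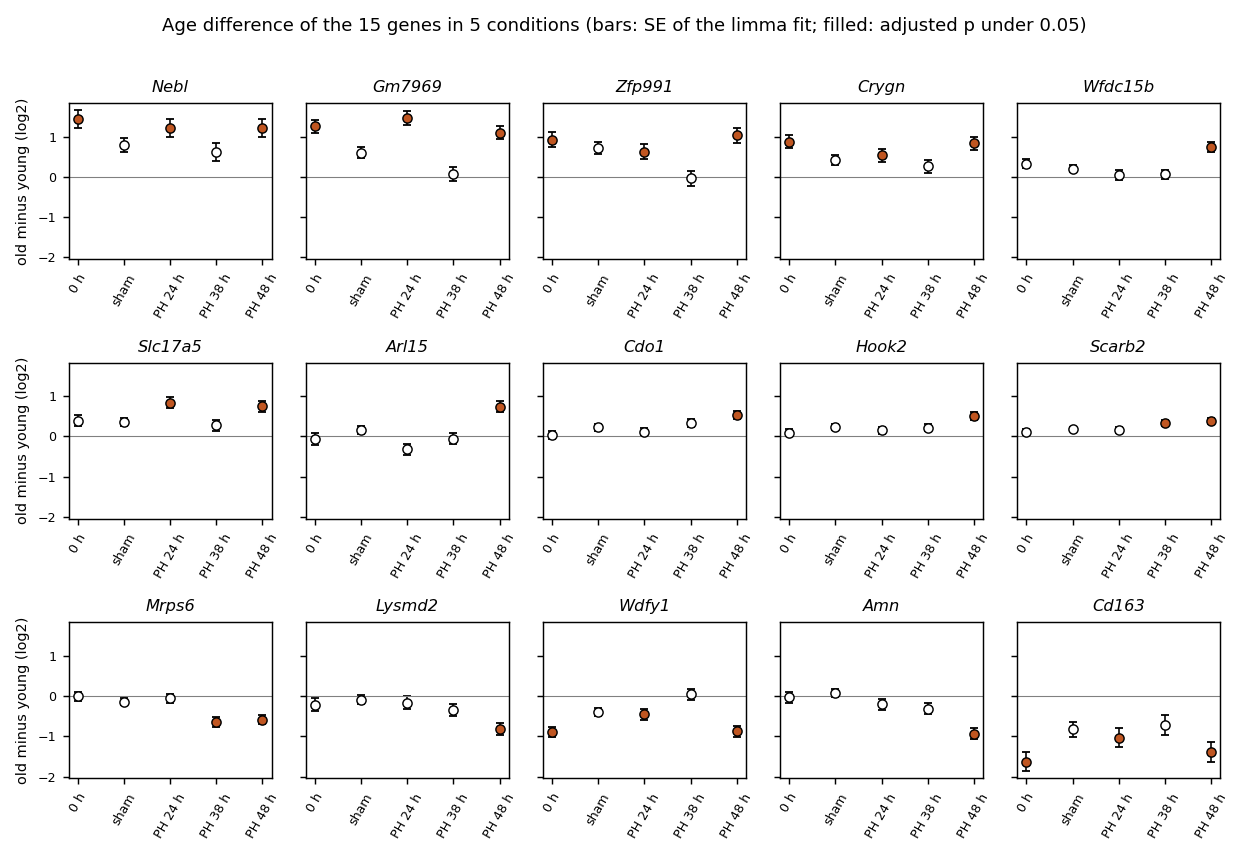
Old minus young difference (vertical axes, log2) of the 15 genes at 0 h, after sham surgery (mean of the 3 times) and 24, 38 and 48 h after PH. Bars are standard errors of the limma fit and filled points have an adjusted p under 0.05. Nebl, Gm7969, Zfp991, Crygn, Wdfy1 and Cd163 are filled at 0 h and at 24 h, Slc17a5 at 24 h, Scarb2 and Mrps6 at 38 h, and none of the 15 after sham surgery.

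Whether the age difference at 48 h itself departed from that of the other conditions was tested in the same limma fit. No gene passed for the 48 h difference minus the 0 h difference (0 of 18194, with 1364 at an unadjusted p under 0.05), nor for the 48 h difference minus that 48 h after sham surgery (0, with 378 at an unadjusted p under 0.05). Against the difference at 24 h after PH there were 0 (2856 at an unadjusted p under 0.05) and against that at 38 h 0 (1553). The first test gave 4 genes without old 0 h array 1 and 1 without young 0 h array 2, and the second gave 1 without old sham 48 h array 1. An age difference particular to 48 h after PH was thus not shown for any gene at this number of arrays.

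Cell cycle genes had risen in both ages by 48 h. In the list of DNA replication genes, 38 of 44 measured members had risen against 0 h in young liver, where 13.4% of all genes rose, and 33 in old liver, where 8.28% did. In the list of mitosis genes 54 of 57 had risen in young and 56 in old liver. Between the ages 0 members of either list passed at 48 h (3 of each at an unadjusted p under 0.05). The median difference was -0.24 for DNA replication and -0.14 for mitosis, against 0.00083 over all genes. With 1 array left out the DNA replication median ran from -0.37 (without old array 3) to -0.15 (without old array 1), and the mitosis median from -0.31 (without young array 2) to -0.021 (without young array 3). It was -0.065 for mitosis without old array 3 and -0.069 with array weights.

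Most members were lower in old liver without passing. In DNA replication 41 of 44 differences were below 0, from -0.63 for Rrm2 to 0.13 for Mcm10, named as the extremes. In 6 members (13.6%) every old array was below every young array, a share near the 9.32% of all genes. Pcna, the sliding clamp of the replication fork, stood at 12.45, 12.38 and 12.49 in young and 11.98, 12.09 and 12.51 in old liver, and Mcm7, a helicase subunit, at 12.01, 11.69 and 12.08 (young) against 11.47, 11.42 and 11.70 (old). In both genes old array 3 lay above the lowest young array, and the differences were -0.25 ± 0.23 (adjusted p = 0.907) and -0.40 ± 0.34 (adjusted p = 0.9). Ccne1, cyclin E, the activator of CDK activity at the entry into S phase, was lower in every old array (8.71, 8.80 and 8.84) than in the young arrays (9.07, 9.05 and 9.26), with a difference of -0.35 ± 0.20 (adjusted p = 0.782).

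In mitosis 41 of 57 differences were below 0 and 16 above. In 12 members (21.1%) every old array was below the young arrays and in 2 members (3.51%) above. Ccna2, cyclin A, read 10.88, 10.72 and 10.80 in young and 10.53, 10.52 and 10.09 in old liver (-0.42 ± 0.36, adjusted p = 0.896), and Ccnb2, a B cyclin, 11.48, 11.18 and 11.29 (young) against 11.12, 11.09 and 10.59 (old) (-0.38 ± 0.45, adjusted p = 0.943). Mki67, a marker of cycling cells, differed by -0.26 ± 0.59, Cdk1, the mitotic kinase, by -0.07 ± 0.45, Foxm1, a factor that turns on mitotic genes, by -0.05 ± 0.13 and Top2a, the topoisomerase of chromosome condensation, by 0.10 ± 0.51, with adjusted p from 0.979 to 0.993. Pttg1, securin, differed by -0.19 ± 0.16. After their values were seen, Cdc25b, a phosphatase that activates CDKs, was singled out as higher in every old array (8.44, 8.53 and 8.23 against 7.97, 8.02 and 7.91), with 0.43 ± 0.17 (adjusted p = 0.564).

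At the earlier times after PH, in arrays that enter the 48 h test only through its spread, members of both lists passed for age. At 24 h 16 of 44 DNA replication genes and 3 of 57 mitosis genes were lower in old liver, where 2.87% of all genes were, and at 38 h 26 and 29 were, where 1.51% of all genes were. The mean level of the DNA replication genes was 8.82 in young and 8.07 in old liver at 24 h, 9.77 and 8.78 at 38 h, and 9.29 and 9.04 at 48 h. That of the mitosis genes was 7.58 and 7.11, 9.15 and 7.99, and 9.84 and 9.69. The array ranges of the mitosis level overlapped at 48 h (young 9.58 to 10.04, old 9.57 to 9.81), as did those of DNA replication (young 9.19 to 9.43, old 8.83 to 9.31). No gene passed for a change in its age difference between 24 h or 38 h and 48 h.

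**Figure D4:**
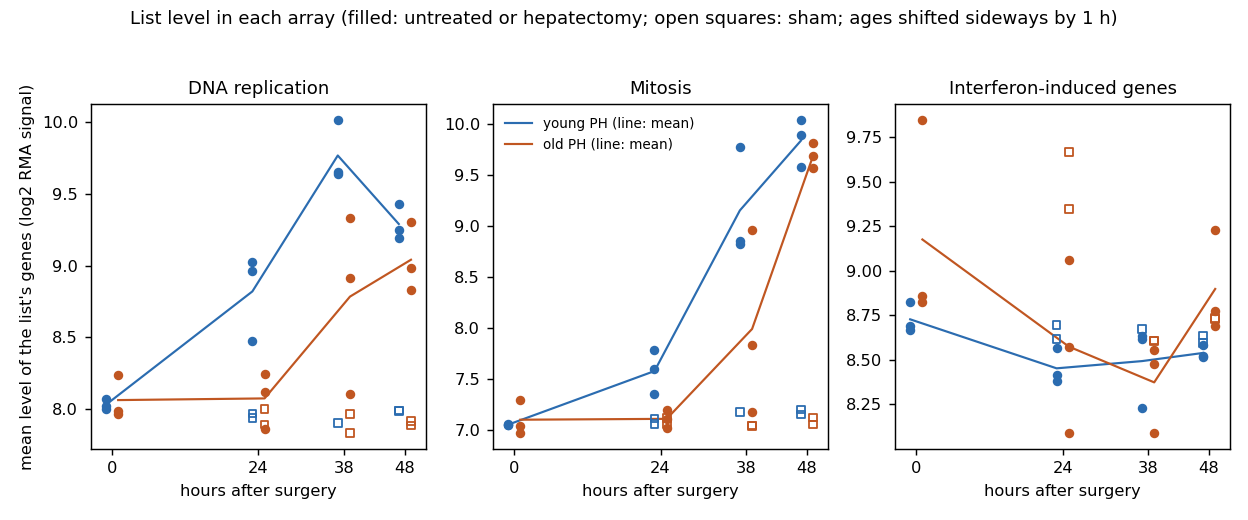
Mean level of the DNA replication genes (44), mitosis genes (57) and interferon-induced genes (46) in each array (vertical axes, log2 RMA signal) against hours after surgery (horizontal axes). Filled points are untreated (0 h) or PH arrays, open squares are sham arrays, and lines join the means of the untreated and PH groups. At 48 h the old and young PH arrays overlap for both cell cycle lists, and 1 old array is above the others for the interferon-induced genes.

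Among regulators of G1 and inhibitors of CDKs 0 of 31 measured members passed (1 at an unadjusted p under 0.05). The median difference was -0.070. Without overlap, 4 members (12.9%) were lower, a share near the 9.32% of all genes, and 1 (3.23%) was higher, against 8.57% of all genes. Ccnd1, cyclin D1, differed by -0.27 ± 0.48, Cks1b, a CDK subunit, by -0.07 ± 0.24 and Myc by -0.07 ± 0.31. Cdkn1a, the p21 inhibitor, was lower in every old array (11.65, 11.67 and 11.48) than in the young arrays (11.94, 11.87 and 11.76), with a difference of -0.26 ± 0.41 (adjusted p = 0.965), and Cdkn2a, the locus of an inhibitor used as a mark of senescence, differed by -0.14 ± 0.12 (adjusted p = 0.901). DNA repair genes had a median of -0.079 with 7 of 37 (18.9%) lower and 2 (5.41%) higher without overlap, and p53 targets a median of -0.082 with 3 of 23 (13%) lower, a share near that of all genes.

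Among C/EBP factors and chromatin regulators studied with them in aged liver, 0 of 21 measured members passed (1 at an unadjusted p under 0.05). The median was -0.0031 and 2 members (9.52%) were higher without overlap, near the 8.57% of all genes. Cebpa, which restrains hepatocyte growth, stood at 11.56, 12.06 and 11.57 in young and 11.97, 11.90 and 11.68 in old liver (0.12 ± 0.17), and Cebpb, which is induced early after PH, at 12.26, 12.42 and 12.33 (young) against 12.34, 12.47 and 12.45 (old) (0.08 ± 0.12). Smarca2, an ATPase of the SWI/SNF complex also called Brm, differed by 0.04 ± 0.36 and Hdac1, a histone deacetylase, by 0.07 ± 0.10, with adjusted p of 0.995 and 0.952. A p that misses the threshold does not show that these levels were equal.

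Growth factors, cytokines and their receptors had a median difference of 0.14, with 33 of 44 members above 0 and 0 passing (3 at an unadjusted p under 0.05). In 9 members (20.5%) every old array lay above the young arrays and in 2 (4.55%) below, against 8.57% and 9.32% of all genes. Igf1, the growth hormone-dependent growth factor, differed by 0.01 ± 0.08, Igfbp1, an immediate early gene of regeneration, by 0.14 ± 0.64, and Igfbp2 by 0.34 ± 0.22 without overlap. Osmr, the oncostatin M receptor, named after its values were seen, was 7.75, 6.95 and 7.51 in young and 7.96, 8.41 and 8.70 in old liver (0.95 ± 0.45, adjusted p = 0.685). Fgfr4, the hepatocyte receptor for the bile acid hormone of the gut and named in the same way, was 9.74, 10.05 and 9.74 (young) against 10.46, 10.28 and 10.29 (old) (0.50 ± 0.17, adjusted p = 0.44).

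Interferon-induced genes had the highest median of the 40 lists, 0.30, with 41 of 46 measured members above 0. In 15 members (32.6%) every old array was above every young array and in 0 below, and 0 members passed in limma (10 at an unadjusted p under 0.05). Iigp1, an interferon-inducible GTPase, was 11.53, 11.94 and 11.62 in young and 11.93, 12.16 and 12.41 in old liver (0.47 ± 0.19, adjusted p = 0.568), and Ifi35 was 11.04, 11.15 and 11.21 (young) against 11.07, 10.96 and 11.50 (old) (0.04 ± 0.36). The following members were named after their values were seen. Ifit1, which binds foreign RNA caps, read 6.78, 7.01 and 6.96 in young and 7.69, 7.59 and 9.35 in old arrays (1.29 ± 0.43, adjusted p = 0.4), Rtp4 9.18, 9.20 and 9.22 (young) against 9.74, 9.79 and 11.10 (old) (1.01 ± 0.36, adjusted p = 0.456), and Irf7, a factor that amplifies the interferon response, 9.04, 8.87 and 8.56 (young) against 9.91, 9.36 and 10.03 (old) (0.94 ± 0.34, adjusted p = 0.48).

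Old array 3 was the highest of the 6 arrays for 34 of the 46 members. Without it the list median was 0.22, and without old array 1 or 2 it was 0.37 and 0.42. The mean level of the list was 8.51 to 8.58 in the young arrays and 8.69 to 9.23 in the old arrays 48 h after PH, and 8.67 to 8.82 in young and 8.82 to 9.85 in old untreated liver. The list's median age difference was 0.44 at 0 h, 0.14 at 24 h and -0.11 at 38 h after PH, and 0.26 after sham surgery over the 3 times. At 48 h after sham surgery alone it was 0.071, while the old arrays 24 h after sham surgery had list levels of 9.35 to 9.67, against 8.62 to 8.70 in young.

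Interferon-induced genes are turned on through a response element that STAT and IRF factors bind, and a simple form of it, GAAANNGAAA on either strand, was looked for in the RefSeq promoter windows of build GRCm38.p6, from 250 bases before to 50 after each gene start. The reference is of the C57BL/6J strain and the mice were CB6F1 hybrids. The 3 members with the largest positive differences without overlap that have a window are shown, 5′ to 3′ on the strand of the gene, with matches in capitals. Ifit1 (chr19:34640639-34640938, + strand) had matches starting at -104 and -85 from the gene start, Irgm2 (chr11:58214727-58215026, + strand) at -64, and Irf7 (chr7:141266375-141266674, - strand) none. These are the matches of the window shown, the first listed for each gene, and any further window of a gene is not shown.
Ifit1: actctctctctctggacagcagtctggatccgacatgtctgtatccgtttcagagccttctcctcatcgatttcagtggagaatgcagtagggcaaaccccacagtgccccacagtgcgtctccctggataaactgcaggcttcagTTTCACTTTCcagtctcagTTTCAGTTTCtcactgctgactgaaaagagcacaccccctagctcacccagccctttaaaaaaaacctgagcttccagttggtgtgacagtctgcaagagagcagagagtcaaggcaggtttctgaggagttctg
Irgm2: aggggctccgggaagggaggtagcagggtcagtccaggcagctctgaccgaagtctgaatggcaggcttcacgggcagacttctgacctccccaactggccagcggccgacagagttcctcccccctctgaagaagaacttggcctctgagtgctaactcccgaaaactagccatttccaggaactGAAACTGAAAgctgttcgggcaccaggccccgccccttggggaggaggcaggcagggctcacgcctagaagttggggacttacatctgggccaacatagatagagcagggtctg
Irf7: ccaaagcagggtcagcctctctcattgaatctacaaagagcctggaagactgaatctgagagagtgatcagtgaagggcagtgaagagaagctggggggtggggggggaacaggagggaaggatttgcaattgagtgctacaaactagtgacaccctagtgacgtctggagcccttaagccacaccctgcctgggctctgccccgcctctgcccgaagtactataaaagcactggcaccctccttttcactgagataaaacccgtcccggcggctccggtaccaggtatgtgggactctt
The form shown was present in 1131 of all 32851 windows (3.44%) and in 18 of 43 windows of the measured list (41.9%), which belong to 17 of the 35 members with a window. A match describes these letters and is not a measured binding site. Irgm2, a GTPase of the same family as Iigp1, read 9.0, 9.42 and 9.30 in young and 9.66, 9.84 and 10.59 in old liver (0.79 ± 0.28, adjusted p = 0.449).

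The immune cell lists had medians above 0, and 1 of their genes passed. In untreated liver the median age differences were 0.73 for macrophages, 0.41 for class II presentation and 0.078 for B cells. They were 0.019 for T and NK cells, 0.20 for neutrophils and 0.24 for chemokines. For 48 h after sham surgery, in the same order, they were 0.43, 0.20, 0.13, 0.095, 0.14 and 0.064. Over the 3 times after sham surgery they were 0.33, 0.16, 0.088, -0.011, -0.0059 and 0.038. Medians above 0 were thus present without hepatectomy in each of these conditions for the macrophage, class II and B cell lists. For T and NK cells and for neutrophils the sign differed between these conditions. Among 28 macrophage and Kupffer cell genes only Cd163 passed, the median was 0.20, and 24 were above 0. In 10 (35.7%) every old array was above the young arrays and in 2 (7.14%), Cd163 and Marco, below. Marco, a scavenger receptor of resident macrophages named after its values were seen, was 9.84, 8.41 and 8.42 in young and 8.08, 7.49 and 7.29 in old liver (-1.27 ± 0.58, adjusted p = 0.654). Of the other Kupffer cell markers, Clec4f was 10.06, 9.87 and 9.90 (young) against 9.97, 10.17 and 10.16 (old) (0.16 ± 0.33), Vsig4 10.29, 9.86 and 10.22 (young) against 10.18, 10.37 and 10.23 (old) (0.14 ± 0.42), and Adgre1, an adhesion receptor, 8.58, 8.27 and 8.45 (young) against 8.51, 8.71 and 8.69 (old) (0.21 ± 0.27), all 3 with overlap and chosen after their values were seen. The mean level of the macrophage list was 8.62 to 9.02 in young and 8.97 to 9.07 in old arrays, and its part in the Cd163 difference was not tested.

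Antigen presentation by class II molecules had 5 of 12 members (41.7%) higher without overlap, against 8.57% of all genes, and a median of 0.056. Ctss, the cathepsin that processes the invariant chain, was 10.08, 9.58 and 9.99 in young and 10.55, 10.57 and 10.69 in old liver (0.72 ± 0.37, adjusted p = 0.733), and H2-Eb1 9.12, 9.26 and 9.08 (young) against 9.42, 9.50 and 9.50 (old) (0.32 ± 0.38, adjusted p = 0.943). Of the B cell and plasma cell genes 6 of 20 (30%) were higher and 1 (5%) was lower without overlap. Ighm, the heavy chain of IgM, was 8.61, 8.73 and 8.18 in young and 9.55, 10.18 and 10.45 in old liver (1.55 ± 0.57, adjusted p = 0.487), beside 2.08 ± 0.57 at 0 h (adjusted p = 0.149). T cell and NK cell genes had 7 of 31 (22.6%) higher and 4 (12.9%) lower without overlap, the latter near the 9.32% of all genes, with a median of 0.054, and Cd3e, a chain of the T cell receptor complex, differed by 0.15 ± 0.08.

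Neutrophil genes had 5 of 14 (35.7%) higher without overlap, against 8.57% of all genes, and a median of 0.089, and Lcn2, an acute phase protein also made by hepatocytes, was 13.80, 13.76 and 14.01 (young) against 14.04, 14.37 and 14.21 (old) (0.35 ± 0.46). Among chemokines Ccl9 was lower in every old array (12.71, 12.90 and 12.26) than in young arrays (13.94, 13.26 and 13.12), with a difference of -0.82 ± 0.33 (adjusted p = 0.562), with a list median of 0.051. Sinusoidal endothelium had 7 of 29 (24.1%) higher and 0 lower without overlap (median 0.097). Stellate cell and matrix genes had 7 of 37 (18.9%) higher and 0 lower (median 0.24, and 0.091 without young array 2 or 0.11 without old array 1), and Dcn, decorin, was 11.96, 11.74 and 12.02 in young and 12.34, 12.25 and 12.17 in old liver (0.35 ± 0.12, adjusted p = 0.438). Bile duct, red cell precursor, fat and pancreas markers had medians of -0.15, -0.0018, 0.029 and -0.0091, and the bile duct median ran from -0.28 without old array 1 to -0.021 without young array 1. In the fat list 2 of 9 members (22.2%) were higher and 0 lower without overlap, with Cidea (1.84) as its extreme. The mean level of that list was 7.70 to 7.78 in young and 8.08 to 8.22 in old arrays.

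Fatty acid synthesis had the lowest median of the 40 lists, -0.34, with 20 of 26 members below 0, 6 (23.1%) lower and 3 (11.5%) higher without overlap, and 0 passing (8 at an unadjusted p under 0.05). Scd1, the desaturase of palmitate and stearate, ranged widely in young liver (14.28, 13.18 and 11.82) and read 12.60, 12.43 and 12.58 in old liver (-0.55 ± 0.36). Elovl5, a fatty acid elongase, was higher in every old array, by 0.25 ± 0.15. The members named next were chosen after their values were seen. Thrsp, a thyroid hormone-responsive gene of lipogenesis, stood at 11.03, 10.45 and 10.27 in young and 7.91, 8.46 and 9.57 in old liver (-1.94 ± 0.70, adjusted p = 0.48), Srebf1, the factor that drives the pathway, at 12.36, 11.97 and 11.27 (young) against 11.04, 10.94 and 11.13 (old) (-0.83 ± 0.33, adjusted p = 0.564), and Me1, malic enzyme, at 11.14, 11.11 and 10.99 (young) against 10.51, 10.46 and 10.32 (old) (-0.65 ± 0.15, adjusted p = 0.127).

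Young array 1 was the highest of the 6 for Scd1, Srebf1 and Thrsp, and young array 3 the lowest of the young arrays. Without young array 1 the list median was -0.15. With the mean of all probe sets of a gene it was -0.21. The list's median age difference was 0.13 at 0 h, -0.089 at 24 h and 0.033 at 38 h after PH, and 0.085 after sham surgery over the 3 times. At 48 h after sham surgery alone it was -0.30, in 2 arrays of each age, with a mean list level of 11.36 in young and 11.02 in old liver, beside 10.85 and 10.57 at 48 h after PH. The negative median at 48 h was thus also present without hepatectomy, and the median over genes of the PH difference minus the sham difference was 0.12. Against 0 h, 15 of 26 members had fallen in old liver, as had 8.62% of all genes, and 9 in young liver, as had 14.5% of all genes, in contrasts that share the 48 h arrays. Against sham surgery at 48 h, 7 members had fallen in old liver (median -0.20), as had 6.56% of all genes, and 8 in young liver (median -0.43), as had 7.31%.

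The other lipid and metabolic lists had medians nearer to 0. Cholesterol synthesis had a median of 0.24 with 7 of 20 (35%) higher and 1 (5%) lower without overlap, against 8.57% and 9.32% of all genes. Its median was 0.087 without old array 3, and its median age difference 48 h after sham surgery was -0.43. Its Hmgcs1, which makes HMG-CoA, was 13.26, 13 and 13.16 in young and 13.29, 13.39 and 13.65 in old liver (0.30 ± 0.49). Fatty acid oxidation had a median of 0.14 (0.039 without young array 1) with 5 of 37 (13.5%) higher, and Fabp1, the liver fatty acid binding protein, differed by -0.003 ± 0.21. Cd36, a fatty acid transporter named after its values were seen, was 8.69, 8.62 and 8.36 in young and 9.59, 9.78 and 9.94 in old liver (1.21 ± 0.32, adjusted p = 0.229), with 1.21 ± 0.32 at 0 h. Glucose metabolism had a median of 0.10 with 7 of 32 (21.9%) higher and 2 (6.25%) lower, and its median ran from -0.0035 without young array 1 to 0.20 without young array 2. Amino acid catabolism with the urea cycle had a median of -0.10, which was 0.0092 without old array 2, with 2 of 47 (4.26%) higher, Cdo1 among them, and 5 (10.6%) lower.

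Among enzymes of drug and steroid metabolism the median was -0.026, with 2 of 36 (5.56%) higher and 3 (8.33%) lower without overlap, both below the 8.57% and 9.32% of all genes. Cyp3a11 differed by -0.08 ± 0.09 and Cyp2e1 by 0.18 ± 0.11. Cyp2b10, an enzyme induced through the xenobiotic receptor CAR, named after its values were seen, was 9.50, 9.92 and 8.94 in young and 8.47, 8.18 and 8.39 in old liver (-1.11 ± 0.32, adjusted p = 0.311), and -1.06 ± 0.32 apart at 0 h. Bile acid genes had a median of 0.048. Genes known to be male-biased in mouse liver had a median of 0.17, which was -0.075 without young array 1, and female-biased genes -0.0033, and all 6 livers were male by their labels. Pericentral and periportal genes, from hepatocytes near the central and portal veins, had medians of 0.11 and -0.12 with 0 members passing (0 and 2 at an unadjusted p under 0.05). With 1 array left out these ran from 0.071 (without young array 1) to 0.23 (without old array 1) and from -0.16 (without old array 3) to -0.069 (without old array 2).

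Differences of plasma protein genes were mostly above 0, and 0 passed. In complement and coagulation 28 of 30 members were above 0, 10 (33.3%) were higher and 1 (3.33%) lower without overlap, against 8.57% and 9.32% of all genes, and the median was 0.21. Plg, plasminogen, stood at 13.97, 14.11 and 14.05 in young and 14.12, 14.30 and 14.23 in old liver (0.17 ± 0.09), and Kng1, kininogen, differed by 0.26 ± 0.11. Acute phase genes had a median of 0.15 with 9 of 33 (27.3%) higher and 2 (6.06%) lower without overlap, and of 0.29 without old array 1, and Hp, haptoglobin, was 14.74, 14.72 and 14.73 (young) against 14.84, 14.87 and 14.83 (old) (0.12 ± 0.07). Afp, alpha-fetoprotein of fetal and regenerating liver, was 7.85, 7.41 and 7.54 in young and 6.85, 7.06 and 7.54 in old liver (-0.45 ± 0.20, adjusted p = 0.648), and the oncofetal list had a median of -0.024.

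Ribosome biogenesis held the largest share of members lower without overlap among the 40 lists. It was 17 of 34 (50%), against 9.32% of all genes, with 0 higher, 30 differences below 0, a median of -0.16 and 0 members passing (4 at an unadjusted p under 0.05). A median age difference of -0.16 was also present in untreated liver, without hepatectomy. For the same list it was 0.19 at 24 h and 0.063 at 38 h after PH, and 0.017 after sham surgery over the 3 times. Ncl, nucleolin, was 11.89, 11.59 and 11.69 in young and 11.61, 11.33 and 11.53 in old liver (-0.23 ± 0.28), and Npm1, nucleophosmin, 11.84, 11.39 and 11.55 (young) against 11.27, 11.47 and 11.54 (old) (-0.16 ± 0.22). Polr1c, a subunit of RNA polymerases I and III chosen after its values were seen, was 10.02, 9.91 and 10.01 in young and 9.46, 9.41 and 9.68 in old liver (-0.46 ± 0.12, adjusted p = 0.201).

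Chaperones of the heat shock list had 22 of 23 below 0, 9 (39.1%) lower and 0 higher without overlap, against 9.32% and 8.57% of all genes, and a median of -0.20, which was -0.13 without young array 2. Their median age difference was also below 0 in untreated liver (-0.17) and after sham surgery over the 3 times (-0.13). It was -0.34 at 24 h and -0.51 at 38 h after PH. Hspd1, the mitochondrial chaperonin, was 13.28, 13.51 and 13.37 in young and 13.10, 13.22 and 13.28 in old liver (-0.19 ± 0.08), and Hspa8, the constitutive heat shock cognate, differed by -0.05 ± 0.14. Hspa1a, the inducible heat shock protein named after its values were seen, rested on young array 2 (5.75, 8.93 and 5.73 in young, 5.13, 5.42 and 5.36 in old). Endoplasmic reticulum stress and clock genes had medians of 0.027 and 0.0011, with 1 member of each list lower and 0 higher without overlap. Glutathione and antioxidant genes had a median of -0.11, from -0.17 without old array 1 to -0.065 without young array 1, and early response genes 0.064.

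**Figure D5:**
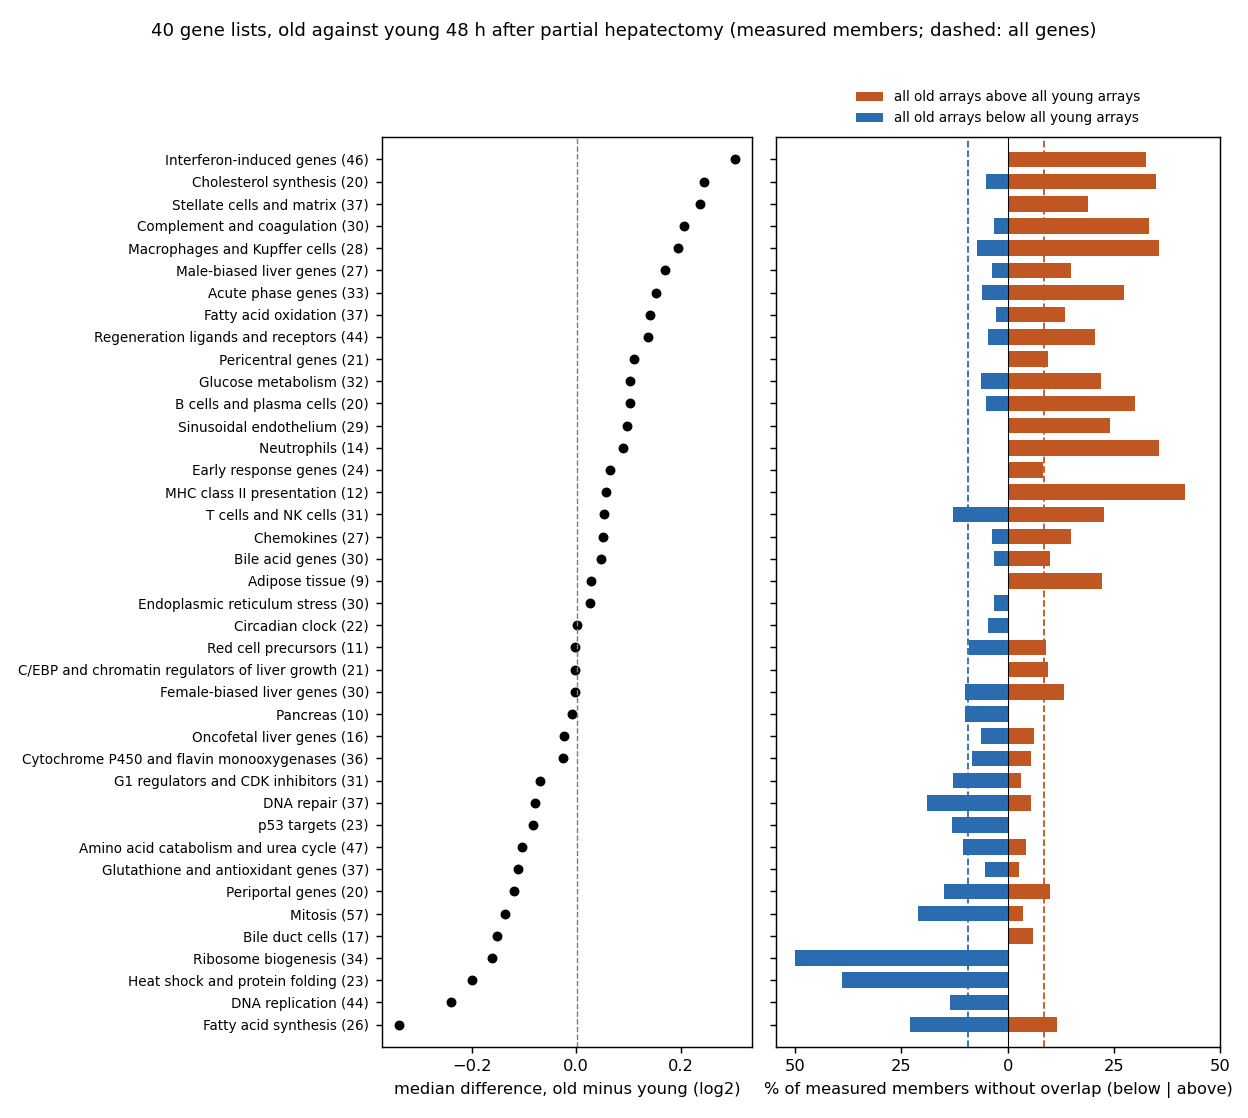
The 40 gene lists, with the number of measured members in parentheses. The left panel shows the median difference, old minus young (log2), and the right panel the share of members (%) whose old arrays all lie below (to the left) or above (to the right) the young arrays. Dashed lines mark all genes (median 0.00083, 9.32% below and 8.57% above), and ribosome biogenesis reaches 50% below.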

How the data were processed

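Liver RNA (5 µg, biotin-labelled) was put on Affymetrix mouse arrays covering the genome. The deposited values are log2 signals that the authors made with RMA, per the submitters' processing notes, whose version is not given in the sources used here. Of 45101 probe sets 34958 had 1 gene symbol in the platform annotation, 932 had several and 9211 were not listed. The brightest probe set on average over 35 arrays stood for each of 18194 genes (9012 had over 1). limma 3.58.1 (R 4.3.3) fitted 14 group means to all 35 arrays, with 21 residual and 3.29 prior degrees of freedom, and p-values were adjusted by Benjamini-Hochberg over all genes. Arrays have no read depth, so their number limits the precision.

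Members and gene lists were chosen with earlier results of these data known. Named genes are up to 15 per direction past the threshold without overlap of the 6 arrays, up to 4 called members per list or else its 2 brightest, and a panel of cell cycle and liver genes. Others are said to be chosen after their values were seen. Whether replicate numbers pair the arrays is not known. Correlations of same-numbered deviations were 0.447, -0.048 and 0.263, and 2 of the 3 young arrays correlated best with the old array of their number. The limma steps were tested on simulated data. Promoters came from the RefSeq table of GRCm38.p6. Figures used matplotlib 3.10.9 (Python 3.11.15).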

Additional observations from a re-analysis of the deposited data

How the results depend on the processing

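The main count of 15 genes between old and young liver 48 h after PH became 8 with dim genes left out (7 of the 15 were then not tested), 165 with array weights (weights of 0.105 to 20.6 over all arrays, in an iteration stopped before convergence), and 60 without the old groups 24 h and 38 h after PH. It was 12 to 15 under the other alternatives that kept all 6 arrays. These kept 11 to 13 of the 15 genes, except that a fit of these 6 arrays alone (12 calls) kept 6. Leaving out each array in turn gave 0 to 10. With the replicate number as a block 12 genes passed, without Lysmd2, Mrps6 and Scarb2. The block left both tests of a change in the age difference at 0, and whether the numbers pair the arrays is not known. The age difference at 48 h minus that at 0 h gave 8 genes with array weights and 0 to 4 with 1 array left out. Minus that 48 h after sham surgery it gave 1 gene with the mean of probe sets, with arrays centred, with quantile normalization repeated, with a trended robust prior and with only the groups compared, 3 with array weights and 0 to 1 with 1 array left out. The causes were not tested. No gene named in the text that passed changed its direction under any of these alternatives. With 3 arrays in each group, small differences were not detectable.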

Other observations

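3 gene lists were added after the values of the called genes were seen, so their counts describe the data and support nothing further. Lysosomal genes, to which the called Slc17a5 and Scarb2 belong, had 31 of 34 differences above 0 and a median of 0.18, with 13 members (38.2%) higher and 0 lower without overlap (8.57% and 9.32% of all genes). Ctsa, the protective protein of lysosomal galactosidase, stood at 10.50, 10.66 and 10.64 in young and 10.99, 10.95 and 11.06 in old liver (0.40 ± 0.09, adjusted p = 0.127 in limma), and Ctsh, a cathepsin, at 12.05, 12.15 and 12.15 (young) against 12.58, 12.39 and 12.48 (old) (0.36 ± 0.09, adjusted p = 0.163). Genes of the mitochondrial ribosome, which include the called Mrps6, had 74 of 76 differences below 0, a median of -0.20 and 35 members (46.1%) lower without overlap. Proteins of the spliceosomal snRNPs had 20 of 21 below 0, a median of -0.19 and 8 (38.1%) lower without overlap.

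Without the 2 old groups 24 h and 38 h after PH in the fit, 45 more genes passed, 26 higher and 19 lower, and the 6 arrays of each did not overlap. These genes had adjusted p of 0.0586 to 0.861 in the fit of all arrays, and 51 of the 60 also passed with array weights. Those named here were chosen after their values were seen. Cidea, a lipid droplet protein of brown fat and of fatty liver, was 6.41, 6.46 and 6.13 in young and 7.61, 8.46 and 8.44 in old liver (1.84 ± 0.50). Ifi27, an interferon-induced gene, was 11.46, 11.14 and 11.60 (young) against 12.41, 12.24 and 12.98 (old) (1.14 ± 0.26). Slc39a4, a zinc importer, was 10.59, 10.16 and 9.68 in young and 9.44, 8.70 and 8.44 in old liver (-1.28 ± 0.31), and Ces2a, a carboxylesterase, 11.43, 12.43 and 11.78 (young) against 10.81, 10.56 and 11.24 (old) (-1.01 ± 0.27).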
